A study of Sus scrofa domesticus with 16 samples.

Results

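FBP1 encodes fructose bisphosphatase, the enzyme that removes a phosphate from fructose bisphosphate during gluconeogenesis. It was examined together with enzymes of glycolysis, the pathway that breaks glucose down to pyruvate and lactate, in adrenal glands of domestic pigs. Probe sets were taken by the gene symbol that the annotation of the array platform gives. Of 10 symbols looked for, FBP1, HK1, GPI, TPI1, PGK1, ENO1, LDHA and LDHB had 1 probe set each, and ALDOA and PGAM1 were not analysed here. These 8 genes stand among 6765 genes that had a probe set with a single symbol. All 8 passed the filter on low signal, a mean log2 signal of at least 6.15 over all arrays. FBP1 was chosen because its signal differed between the groups on these same arrays, so its difference is described and not tested.

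Each of 16 pigs gave 1 Affymetrix porcine genome array, made from total RNA of the adrenal gland. The high stress group held 8 animals from a mixing treatment with high aggressiveness, in which pigs that did not know each other were put together. The low stress group held 8 animals from a mixing treatment with low aggressiveness. All animals of both groups had thus been mixed, and unmixed pigs were not analysed here. According to the design text, the groups were picked for a difference in fighting behaviour and in plasma cortisol, and the question asked was which adrenal transcripts differ between them.

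Glycolysis and gluconeogenesis share most of their enzymes, which run in either direction, and differ at a few steps that are in practice irreversible. Fructose bisphosphatase catalyses one of these in the direction of glucose, opposite to phosphofructokinase. FBP1 is best known from liver and kidney cortex, the main organs that release glucose. The adrenal cortex turns cholesterol into steroid hormones with NADPH as reductant, part of which comes from the pentose phosphate pathway that branches off glucose 6-phosphate. The medulla holds chromaffin cells, which make catecholamines.

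The glands carried the markers of their labelled tissue. Of 9 adrenal cortex markers 7 were on the array and all 7 passed the filter, with a log2 summed signal of 16.46 to 16.95 in high stress and 16.37 to 16.90 in low stress animals. Of 6 chromaffin markers on the array 5 passed, with sums of 15.06 to 15.88 in high stress and 14.89 to 15.79 in low stress animals. Unmentioned in the labels, the arrays split into a pair of sets of 8 by the signal of dap, a bacterial transcript used as a labelling control. Its mean signal was 3261 to 4826 in the high-spike set and 516 to 721 in the low-spike set, and in each set 4 animals were high stress and 4 low stress. An array's median signal lay at 116 to 147 in high stress and 123 to 146 in low stress animals. Because of these sets, differences between the stress groups are also given within each set.

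FBP1 gave a stronger signal in most high stress glands. Its log2 signal had a lowest value of 12.32, a median of 13.16 and a highest value of 13.48 in high stress animals, against 12.15, 12.57 and 12.67 in low stress animals. In linear MAS5 signal, the same values were 5120, 9165 and 11455 in high stress and 4547, 6084 and 6530 in low stress animals. The groups overlapped, since 6 of 8 high stress animals lay above the highest low stress animal and the other high stress animals lay inside the low stress range. The mean was 13.05 ± 0.44 for high stress glands against 12.50 ± 0.20 for low stress glands (SD, n = 8 each), a log2 difference of 0.55 (SE 0.16) or 1.46-fold. The spread was thus wider among high stress animals. Because the tissue was measured in bulk, a change in the number of cells that hold a transcript and a change in its amount per cell cannot be told apart.

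The order of the 16 animals shows where the overlap came from. The highest FBP1 signals were those of high stress replicates 7, 8, 6, 1 and 4, at 13.48, 13.46, 13.41, 13.18 and 13.14 on the log2 scale. High stress replicate 2 followed at 12.82. Neighbours within the upper 3 differed by little. High stress replicates 5 and 3, at 12.57 and 12.32, stood eleventh and fourteenth from the top. Low stress replicates 1 and 3 were lowest of all, at 12.24 and 12.15, and the other low stress animals lay close together between 12.52 and 12.67.

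Both high stress animals with low FBP1 were in the high-spike set. Within the low-spike set, FBP1 was at 13.14 to 13.46 in high stress and 12.52 to 12.64 in low stress animals. There 4 of 4 high stress animals lay above every low stress animal, as they also did in TPI1, where the difference was 0.16. The share of all probe sets that parted so within a set was not counted, and FBP1 had been chosen for its difference. Within the high-spike set, the ranges were 12.32 to 13.48 in high stress and 12.15 to 12.67 in low stress animals, and 2 of 4 high stress animals lay above every low stress animal. The log2 difference was 0.39 within the high-spike set and 0.70 within the low-spike set. Their difference was −0.31 (95% interval −0.91 to 0.29) and did not pass the interaction test (limma, adjusted p = 0.9996). That test called 0 of 14399 probe sets (0%), and 421 (2.92%) had an unadjusted p under 0.05. So the sets were not shown to differ in the FBP1 difference, and the interval is wide enough to hold a gap larger than the difference over all animals.

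**Figure D1:**
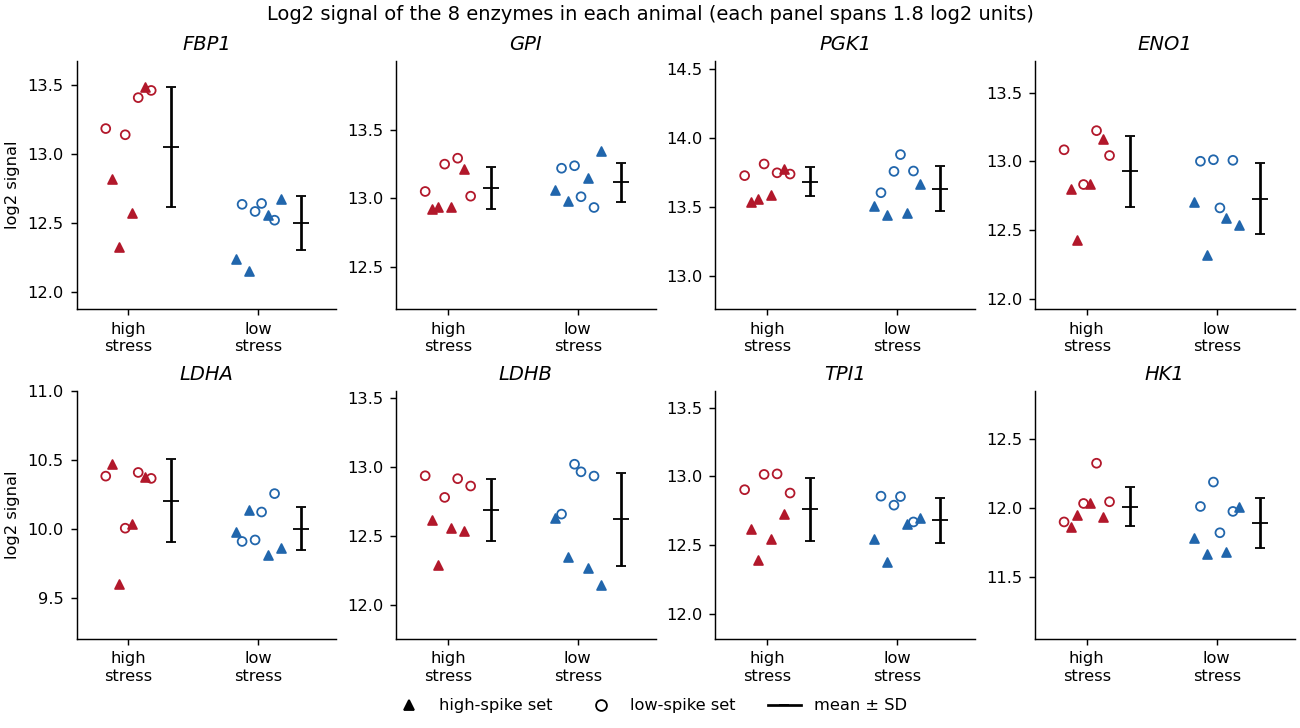
Log2 MAS5 signal (vertical axis) of FBP1 and 7 glycolytic enzymes in each of 16 pigs, high stress on the left and low stress on the right of each panel. Triangles are arrays of the high-spike set, open circles those of the low-spike set, and bars give the mean ± SD over 8 animals. In FBP1, 6 of 8 high stress animals lie above the highest low stress animal, while the groups overlap in all panels.

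The 7 glycolytic enzymes had smaller differences between the groups than FBP1, which had been chosen for its difference, and no test compared them with it. Their log2 differences ran from −0.04 to 0.21 with a median of 0.08, 6 above 0 and 1 below. Over all probe sets tested the median was −0.03, and 41.6% lay above 0. That median turned with the scaling, to 0.04 with each array centred on its median, where the 7 enzymes had a median of 0.15, and it was −0.00 with quantile normalization, where they had 0.03. Limma called 0 of 14399 probe sets between high and low stress animals at an adjusted p under 0.05 (0%), hence none of the 8 genes. At an unadjusted p under 0.05 there were 460 (3.19%), 183 of them higher (1.27%) and 277 lower (1.92%) in high stress animals. With the spike set as a block 1 probe set was called (0.00694%), none of the 8 genes, and 919 (6.38%) had an unadjusted p under 0.05. FBP1 was chosen from this contrast, so neither fit serves as a test of FBP1. The groups did not overlap in 3 probe sets (0.0208%), and they overlapped in all 8 genes. The averaged log2 signal of the 7 enzymes was 12.17, 12.53 and 12.71 (lowest, median and highest) in high stress animals and 12.18, 12.39 and 12.56 in low stress animals, with a difference of the means of 0.10.

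HK1, hexokinase, traps glucose in the cell by phosphorylating it. Its log2 signal was 11.87, 11.99 and 12.33 in high stress animals and 11.67, 11.90 and 12.19 in low stress animals (lowest, median and highest). The groups overlapped largely and only high stress replicate 6 lay above the low stress range. The difference was 0.12 (SE 0.10), and 0.07 without that animal. GPI, which converts glucose 6-phosphate into the fructose form that phosphofructokinase uses, was at 12.92, 13.03 and 13.29 in high stress and 12.93, 13.11 and 13.34 in low stress animals. The ranges were almost the same. The difference was −0.04 (SE 0.09, 95% interval −0.23 to 0.16), and it turned to 0.03 when each array was centred on its median. TPI1 interconverts the triose phosphates that the split of fructose bisphosphate yields. Its log2 signal was 12.40, 12.80 and 13.02 in high stress and 12.38, 12.68 and 12.86 in low stress animals. In TPI1 4 high stress animals exceeded the low stress range, and all 4 belonged to the low-spike set. The difference was 0.08 (SE 0.11).

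PGK1 and ENO1 act further down. PGK1, the kinase of the first ATP-forming step, was at 13.54, 13.73 and 13.81 in high stress and 13.44, 13.64 and 13.88 in low stress animals, a difference of 0.05 (SE 0.09). The low stress range enclosed the high stress range. ENO1, enolase, which forms phosphoenolpyruvate, was at 12.43, 12.94 and 13.22 in high stress and 12.32, 12.69 and 13.01 in low stress animals, a difference of 0.20 (SE 0.13). Of the high stress animals 7 of 8 exceeded the low stress mean, and 4 exceeded the highest low stress animal. The set of arrays did not reverse this, with differences of 0.27 within the high-spike and 0.12 within the low-spike set.

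The lactate dehydrogenase subunits form tetramers that convert pyruvate and lactate into each other. LDHA, the subunit typical of skeletal muscle, was at 9.60, 10.37 and 10.47 in high stress and 9.81, 9.95 and 10.26 in low stress animals. In LDHA 5 high stress animals exceeded the low stress range, while high stress replicate 3 lay below it. The difference of the means was 0.21 (SE 0.13, 95% interval −0.06 to 0.47), smaller than the difference of the medians of 0.42. LDHB, the subunit typical of heart, was at 12.29, 12.70 and 12.94 in high stress and 12.15, 12.65 and 13.02 in low stress animals. Here the low stress range enclosed the high stress range. The difference was 0.07 (SE 0.14), at 0.15 within the high-spike and −0.02 within the low-spike set.

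Single animals weighed on these small differences. The median of the 7 enzymes was 0.04 without low stress replicate 3 and 0.13 without high stress replicate 3, and leaving out each animal in turn stayed between these. The LDHB difference was −0.00 without low stress replicate 8. With quantile normalization the FBP1 difference was 0.50. The FBP1 difference was 0.49 without high stress replicate 7 and 0.65 without high stress replicate 3, the lowest and highest values when each animal was left out.

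**Figure D2:**
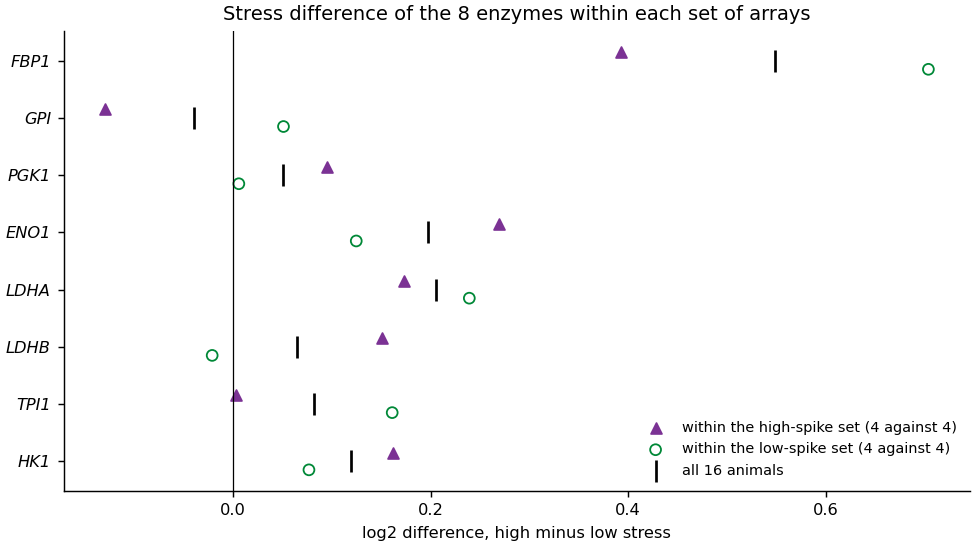
Log2 difference, high minus low stress (horizontal axis), of each of the 8 enzymes over all 16 animals (bars), within the high-spike set (triangles) and within the low-spike set (open circles), with 4 against 4 animals per set. FBP1 stands at 0.39 and 0.70 within the sets, and the 7 glycolytic enzymes between −0.13 and 0.27.

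The sets of arrays differed in a large share of all probe sets, and the 8 enzymes were compared between them as well. In the high-spike set all 8 had lower mean log2 signals than in the low-spike set, with a median of −0.19 over the 7 glycolytic enzymes and of −0.02 over all probe sets tested. Limma called 5767 of 14399 probe sets between the sets (40.1%), 2353 of them lower (16.3%) and 3414 higher (23.7%) in the high-spike set. Of the 8 genes 4 passed, all 4 lower in the high-spike set, beside the 16.3% of all probe sets called lower there. Called or not, 7494 of all 14399 probe sets were lower in that set. Whether this direction is particular to these enzymes was not tested. LDHB was 12.42 ± 0.18 in the high-spike and 12.88 ± 0.12 in the low-spike set (SD, n = 8 arrays each), a log2 difference of −0.46 (SE 0.09, limma adjusted p = 0.000797). TPI1 differed by −0.30 (SE 0.08, limma adjusted p = 0.00525), ENO1 by −0.31 (SE 0.11, limma adjusted p = 0.0286) and PGK1 by −0.19 (SE 0.07, limma adjusted p = 0.0411).

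FBP1 was 12.60 ± 0.42 in the high-spike and 12.95 ± 0.39 in the low-spike set (SD, n = 8 arrays each). Its set difference of −0.34 (SE 0.14) did not pass (limma adjusted p = 0.0630), nor did those of HK1, LDHA and GPI at −0.17, −0.14 and −0.06. These calls moved with the settings. With quantile normalization LDHB alone passed, and GPI and PGK1 stood at 0.13 and 0.05, and with no filter LDHB and TPI1 passed. FBP1 passed in 4 of 7 alternatives, with limma adjusted p = 0.0181 when each array was centred on its median, 0.0477 with the filter at the 60th percentile, 0.0407 with an intensity trend and robust prior and 0.0185 with array weights. Its adjusted p was 0.0578 to 0.262 in the other alternatives, so its call is not settled. With centring HK1 passed too, and the median of all probe sets was then −0.15. The 3' to 5' signal ratio of the actin control, which falls when transcripts are better preserved in length, averaged 6.87 in the high-spike and 14.0 in the low-spike set. For GAPDH this ratio averaged 1.52 in the high-spike and 1.39 in the low-spike set. The part of RNA length and of labelling in the set differences was not tested.

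The actin ratio was 5.28 to 15.1 in high stress and 6.40 to 21.9 in low stress animals. With its logarithm as a covariate the FBP1 difference between stress groups was 0.62 (SE 0.14), and with the mean of the chromaffin markers it was 0.53 (SE 0.16). The first digit of the animal number, a part of the labels with no stated meaning, was 3, 4, 5 or 8, each in 2 high stress and 2 low stress animals. With it as a block the FBP1 difference was 0.55 (SE 0.16), a difference that a block balanced in this way cannot change. It made no difference to FBP1 that passed (limma F test, adjusted p = 0.924). That test called 0 of 14399 probe sets (0%), and 785 (5.45%) had an unadjusted p under 0.05.

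Markers of other cell types were set beside FBP1. The summed signal of smooth muscle markers, of which 5 of 6 were on the array and passed the filter, differed most between the stress groups, by 0.35 on the log2 scale, with 12.80 to 14.25 in high stress and 11.99 to 14.24 in low stress animals. It differed by 0.62 within the high-spike and 0.07 within the low-spike set, and FBP1 by 0.39 and 0.70. Of the 5 smooth muscle genes 4 had a higher and 1 a lower mean in high stress animals. The other marker sums, of cortex, zona glomerulosa, chromaffin, endothelial, fibroblast, myeloid, lymphoid, fat, red blood and skeletal muscle cells and of kidney and liver, differed by −0.20 to 0.08. Of 10 kidney and liver markers 5 were on the array. Albumin, fibrinogen beta chain, transferrin and transthyretin were below the filter, and APOA1 passed at 10.99 ± 0.33 in high stress and 11.08 ± 0.32 in low stress animals (SD, n = 8 each). The summed log2 signal of these markers was 10.80 to 11.60 in high stress and 10.56 to 11.57 in low stress animals. The part of cell composition in the FBP1 difference was not tested.

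The other genes of glucose metabolism were taken from 9 lists. Of their members 78 passed the filter, 50 with a higher and 28 with a lower mean in high stress animals, with a median difference of 0.05. Limma called 0 of the 78, also with the spike set as a block. At an unadjusted p under 0.05 there were 3 (3.85%, beside 3.19% of all probe sets tested), a count that other settings moved. It was 6 with array weights, 7 with the spike set as a block and 14 with the actin covariate. It was 1 without low stress replicate 1 or 7 or high stress replicate 8, and 5 without high stress replicate 2 or low stress replicate 5. The 3 were PGM1, which links glucose 6-phosphate to glycogen, GPD1L, related to the glycerol phosphate dehydrogenases, and TKFC, the kinase of dihydroxyacetone and glyceraldehyde.

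PGM1 was at 10.96, 11.36 and 11.57 in high stress and 10.85, 11.09 and 11.35 in low stress animals (lowest, median and highest), a difference of 0.24 (SE 0.10). GPD1L was at 12.24, 12.69 and 13.15 in high stress and 11.79, 12.11 and 13.19 in low stress animals, a difference of 0.40 (SE 0.19). TKFC was at 4.44, 6.06 and 6.90 in high stress and 5.69, 6.60 and 6.93 in low stress animals, a difference of −0.71 (SE 0.30). The groups overlapped in all 3, and TKFC lay near the filter. PGM1 differed alike within the sets, by 0.23 in the high-spike and 0.25 in the low-spike set. GPD1L differed by 0.78 in the high-spike and 0.03 in the low-spike set, and TKFC by −0.17 and −1.26.

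In gluconeogenesis, the pathway that FBP1 serves, none of the other genes was called between the stress groups, and none was tested against FBP1. Of 13 genes listed 9 were on the array and all 9 passed the filter, with 7 higher and 2 lower means in high stress animals and a median difference of 0.06. PCK1, the cytosolic form of the enzyme that draws oxaloacetate into gluconeogenesis, was at 6.02, 6.42 and 6.65 in high stress and 5.49, 6.26 and 6.83 in low stress animals. The low stress range enclosed the high stress range, and the difference was 0.25 (SE 0.17, 95% interval −0.11 to 0.61), an interval that holds the FBP1 value. PCK1 lay near the filter. PC, pyruvate carboxylase, which makes oxaloacetate, was at 9.73, 9.98 and 10.31 in high stress and 9.88, 10.24 and 10.48 in low stress animals, a difference of −0.21 (SE 0.11). It thus leaned the other way from FBP1, and the groups overlapped.

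FBP2, the muscle form of the bisphosphatase, was at 6.09, 7.05 and 8.29 in high stress and 6.23, 6.94 and 7.61 in low stress animals. Its groups overlapped, and the difference was 0.28 (SE 0.27, 95% interval −0.29 to 0.85), an interval that holds the FBP1 value too. The difference was −0.00 in the high-spike and 0.56 in the low-spike set. The malate dehydrogenases MDH1 and MDH2 differed by 0.17 (SE 0.11) and 0.06 (SE 0.15), and the aspartate aminotransferases GOT1 and GOT2 by 0.07 (SE 0.11) and 0.04 (SE 0.08). PCK2, the mitochondrial form of the oxaloacetate enzyme, differed by −0.04 (SE 0.21). SLC37A4, the carrier that brings glucose 6-phosphate to the glucose-releasing phosphatase of the endoplasmic reticulum, differed by 0.01 (SE 0.12).

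Fructose 2,6-bisphosphate, which is not the substrate of FBP1, inhibits FBP1 and activates phosphofructokinase. Of the enzymes that set its level, 1 of 6 was on the array. This was PFKFB4, at 7.74, 8.41 and 8.86 in high stress and 7.84, 8.57 and 9.20 in low stress animals. The groups overlapped and the difference was −0.11 (SE 0.19). In glycolysis outside the 7 enzymes, 12 genes passed, 6 with higher and 6 with lower means in high stress animals, and the median difference was −0.00. ADPGK, a glucokinase that uses ADP, differed by 0.23 (SE 0.13) and ENO3, muscle enolase, by 0.39 (SE 0.24). ENO3 lay near the filter, with means of 6.57 in high stress and 6.17 in low stress animals. PKM, pyruvate kinase, differed by −0.14 (SE 0.11) and LDHD, which acts on D-lactate, by 0.17 (SE 0.14).

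**Figure D3:**
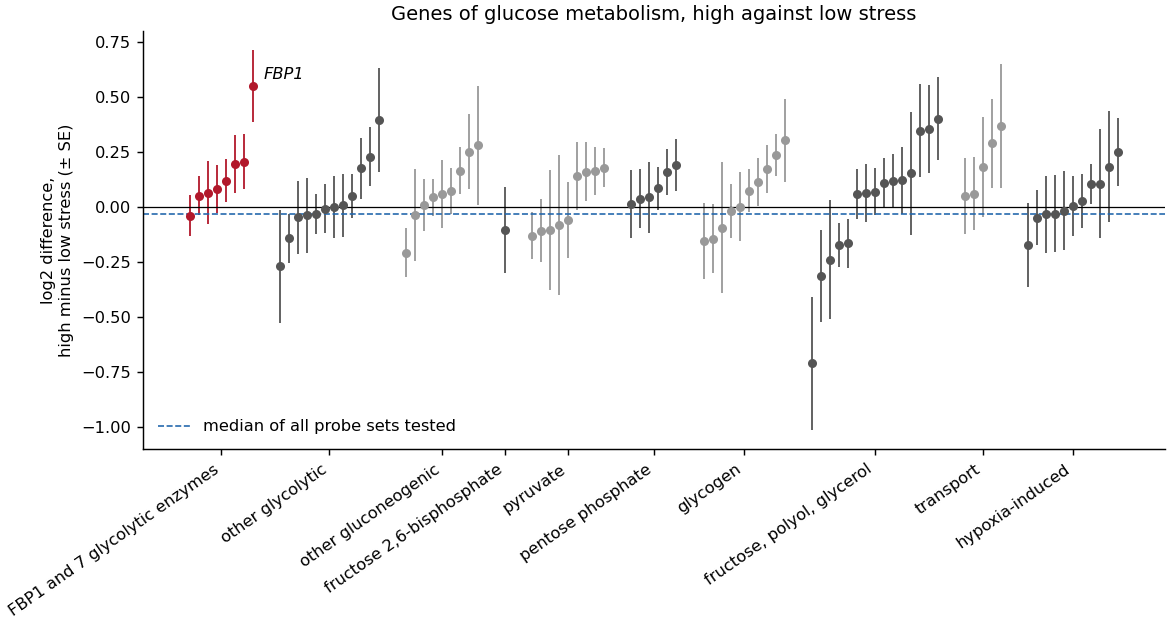
Log2 difference, high minus low stress, with its SE (vertical axis) for each gene that passed the filter, grouped by list and ordered within it, with FBP1 and the 7 glycolytic enzymes in red. The dashed line is the median of all probe sets tested, at −0.03. FBP1 at 0.55, chosen for its difference in this contrast, has the highest value shown, and TKFC at −0.71 the lowest.

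In the pentose phosphate pathway, the branch that yields NADPH, all 6 genes that passed the filter had higher means in high stress animals, with a median difference of 0.06. PRPS1, which makes phosphoribosyl pyrophosphate from the product of the pathway, differed by 0.19 (SE 0.12) and PRPS2, the isoenzyme of PRPS1, by 0.08 (SE 0.10). TKT, transketolase, differed by 0.16 (SE 0.10) and PGD, an NADPH-forming dehydrogenase, by 0.04 (SE 0.13). None was larger than 2 SE. All 5 glucose and lactate transport genes that passed had higher means in high stress animals too, with a median of 0.18. SLC2A8 and SLC2A3, glucose transporters, differed by 0.29 (SE 0.20) and 0.37 (SE 0.28), SLC16A3, a lactate exporter, by 0.18 (SE 0.23) and BSG, the partner of the lactate carriers, by 0.06 (SE 0.17). The difference of SLC16A3 was 0.84 in the high-spike and −0.48 in the low-spike set (interaction, limma adjusted p = 0.9996).

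Other branches were mixed. Around pyruvate, 4 of 9 genes had higher and 5 lower means in high stress animals. PDHA1, a subunit of pyruvate dehydrogenase, differed by 0.18 (SE 0.09) and PDHB, its partner subunit, by −0.13 (SE 0.11), and both subunits of the mitochondrial pyruvate carrier, MPC1 and MPC2, by 0.16 (SE 0.11 and 0.13). Of 10 glycogen genes 6 had higher means, GYS1, glycogen synthase, by 0.30 (SE 0.19), PHKG2, a phosphorylase kinase subunit, by 0.17 (SE 0.11) and PPP1R3B, which brings a phosphatase to glycogen, by 0.11 (SE 0.11). Of 15 genes of fructose, polyol and glycerol metabolism 10 had higher means, and GK, glycerol kinase, differed by 0.36 (SE 0.20) and GALM, galactose mutarotase, by −0.17 (SE 0.10).

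Hypoxia-inducible factors raise many glycolytic genes, so genes they induce outside glycolysis were looked at as well. Of 11 that passed, 6 had higher and 5 lower means in high stress animals, and the median difference was 0.00. CA9, a carbonic anhydrase, differed by 0.25 (SE 0.16), VEGFA, the endothelial growth factor, by 0.10 (SE 0.09), BNIP3L, a mitophagy receptor, by −0.18 (SE 0.19) and EPAS1, a hypoxia-inducible factor itself, by 0.18 (SE 0.25). These values come from the brightest probe set of each gene. Other probe sets of BNIP3L and VEGFA gave differences of the other sign, at 0.09 and −0.16.

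Within the 4 cells formed by stress group and set, FBP1 varied together with several glycolytic enzymes. These correlations use residuals of 16 arrays after the mean of each cell was removed, and the values compared share array, labelling and RNA. With FBP1, Pearson's r was 0.76 for TPI1, 0.67 for ENO1, 0.58 for GPI, 0.55 for PGK1, 0.46 for LDHA, 0.17 for HK1 and 0.00 for LDHB. Over 7271 probe sets with a single symbol, the 1st and 99th percentiles of r with FBP1 were −0.79 and 0.80. All the enzymes lay between these, so none stood out from the other genes. Spearman's rho was 0.75 for TPI1 and 0.37 for ENO1. For TPI1 r was 0.89 in the high-spike and 0.10 in the low-spike set, so the pooled value came mainly from the high-spike set. Likewise GPI and FBP1 had an r of 0.85 in the high-spike and 0.01 in the low-spike set. In the same order, ENO1 had 0.79 and 0.27, PGK1 0.76 and −0.16, LDHA 0.50 and 0.34, and HK1 0.15 and 0.35.

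Among the 7 glycolytic enzymes, 16 of 21 pairs had an r above 0, and the median was 0.26. The highest was that of GPI and TPI1, neighbours but for the steps of phosphofructokinase and aldolase, with r = 0.76, at 0.81 in the high-spike and 0.75 in the low-spike set. LDHA and LDHB had an r of 0.57, and GPI and LDHB the lowest, −0.32. The enzymes thus did not vary as 1 block.

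**Figure D4:**
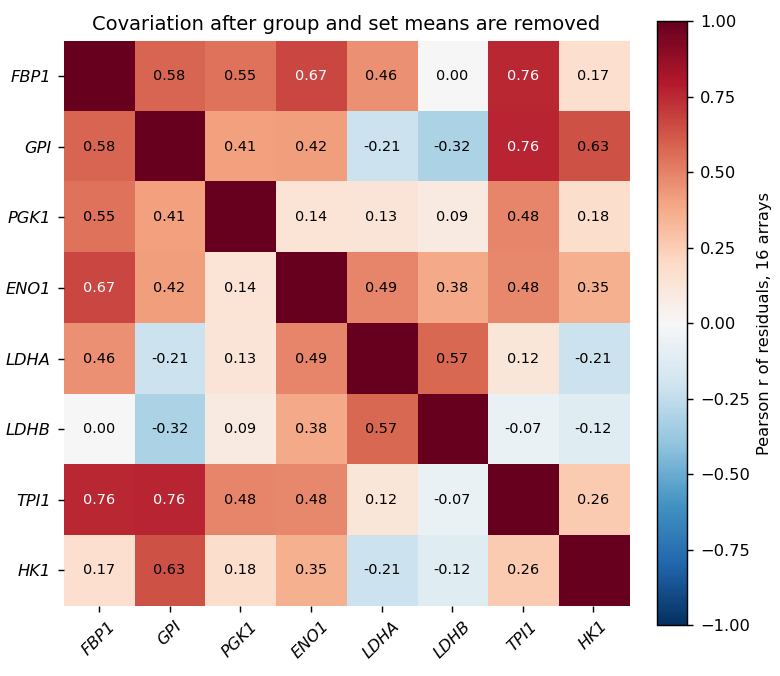
Pearson's r between FBP1 and 7 glycolytic enzymes over 16 arrays, from residuals after the mean of each stress group in each set was removed. Red is a positive and blue a negative r on a scale of −1 to 1. FBP1 has its highest r with TPI1, 0.76, and an r of 0.00 with LDHB.

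The genes with the pattern most like that of FBP1 were sought in the same residuals, over 5454 genes. Across their 7271 probe sets, r with FBP1 had a median of 0.05, and its 1st and 99th percentiles were −0.79 and 0.80. The 8 highest were POLDIP2, a partner of DNA polymerase delta, with r = 0.95, SLA-DMA, which helps to load peptides on class II molecules, with 0.92, AP2S1, the small subunit of a clathrin adaptor, with 0.91, CUTA with 0.90, NDUFB7, a subunit of respiratory complex I, with 0.90, PSMD8, a proteasome subunit, with 0.89, TIMM50, of the inner membrane import channel of mitochondria, with 0.89, and ADAM17, a protease that sheds membrane proteins, with 0.88. None of the 7 glycolytic enzymes was among them.

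Most of this likeness lay in the high-spike set. In POLDIP2 r was 0.98 in the high-spike and 0.53 in the low-spike set, in PSMD8 0.98 and 0.07, and in ADAM17 0.93 and 0.91. The residuals of FBP1 were farthest from their median in high stress replicates 7 and 3, at 0.69 and −0.48, both in the high-spike set. Without these arrays, r was 0.86 for POLDIP2, 0.88 for TIMM50 and 0.67 for NDUFB7.

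The 4 genes that ran most opposite to FBP1 were SENP6, which takes SUMO off proteins, with r = −0.94, SEC63, of the protein channel of the endoplasmic reticulum, with −0.92, PPP1CC, a catalytic subunit of protein phosphatase, with −0.90, and CEBPZOS with −0.90. SENP6 kept r at −0.96 in the high-spike and −0.93 in the low-spike set, and CEBPZOS had −0.98 and −0.03. Between the stress groups SENP6 differed by −0.47 (SE 0.34) and AP2S1 by 0.35 (SE 0.17), and neither was called.

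**Figure D5:**
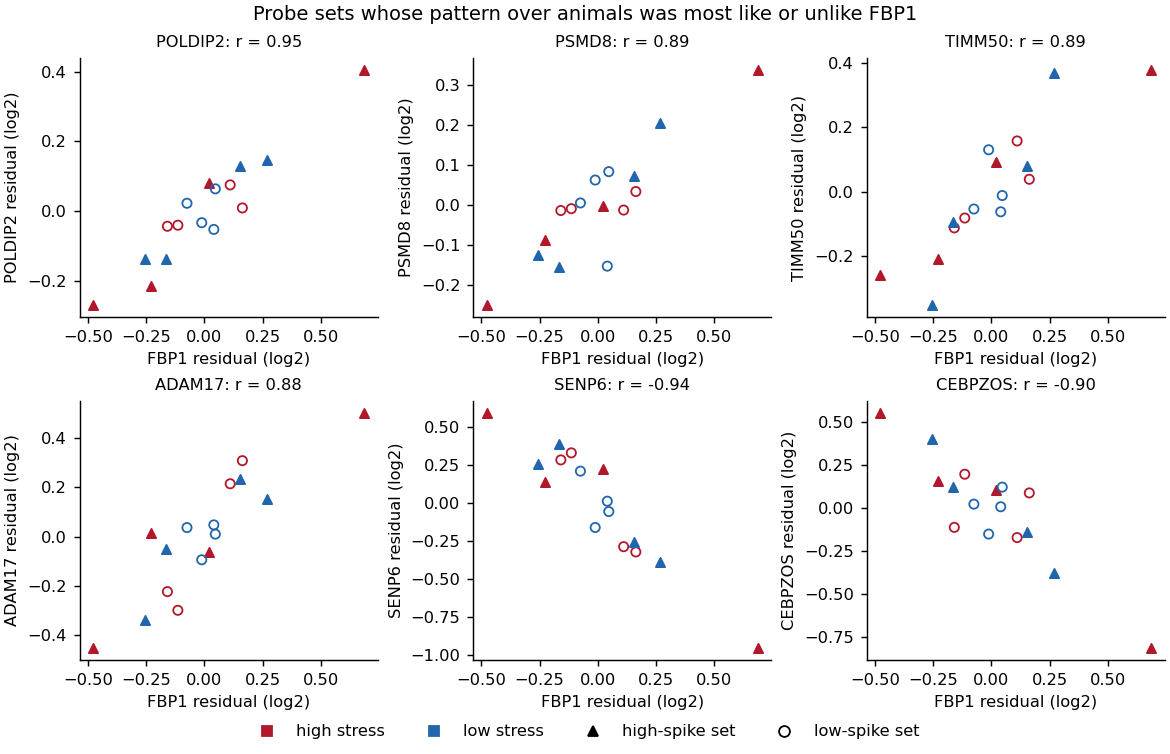
Residuals of 4 genes with a high and 2 with a low Pearson's r against the FBP1 residual (both axes log2, with the mean of each stress group in each set removed) in 16 arrays. Colour gives the stress group and shape the set. High stress replicate 7, with an FBP1 residual of 0.69, lies far to the right in all 6 panels.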

How the data were processed

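Per the submitters' processing notes, the deposited intensity values are MAS5 signals made with Affymetrix Expression Console 1.1.1. Each array's mean without the top and bottom 2% was 500, so arrays had been scaled as a whole. The number of arrays limits the precision. All values were analysed on the log2 scale. Without 124 controls there were 23999 probe sets, of which 10069 had 1 gene symbol, 198 several and 13732 none. Of those with 1 symbol, 9961 matched the Sscrofa11.1 gene table by gene number and 0 symbols changed. Probe sets under the 40th percentile of mean log2 signal (signal 71.1) were left out, leaving 14399 for 5455 named genes.

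All fits used lmFit and eBayes of limma 3.58.1 under R 4.3.3 (two-sided, Benjamini-Hochberg over all 14399, threshold 0.05), and figures used Python 3.11.15 with matplotlib 3.10.9. The set difference is high-spike minus low-spike with the stress group in the model, and the interaction is the stress difference in the high-spike set minus that in the low-spike set. Scripts were tested on simulated data. Lists used the brightest probe set of each gene. Of the lists, every gene of gluconeogenesis and the 4 smallest p of each other list are named, and for likeness the 8 highest and 4 lowest r. The exception is the other probe sets of BNIP3L and VEGFA, chosen after their values were seen. The 8 genes, the lists and the tests were chosen with earlier results of these data known. The labels number the animals, and the p-values measure the spread between them.

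Alternatives were quantile normalization, centring each array on its median, adding a pseudocount of 23.5 (the 20th percentile), no filter or one at the 60th percentile, a robust prior with an intensity trend, limma's array weights, the spike set or first digit as a block, actin and chromaffin covariates, each set alone and each animal left out. Quantile normalization with the set as a block and likeness without the 2 farthest arrays were added after seeing the data.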

Additional observations from a re-analysis of the deposited data

Results flagged for a closer look

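Among the 8 enzymes and the other named genes, 116 groups of 8 values were searched for an animal far from the rest (Dixon's ratio above its 95% critical value), which chance gives in about 5% of groups. It was met in 4 groups (3.45%). HK1 of high stress replicate 6 had a log2 signal of 12.33, with the others of its group at 11.87 to 12.05, and the difference between the groups was 0.12 with and 0.07 without it. SLC37A4 of low stress replicate 3 was at 9.22, with the others at 9.65 to 10.01, and the difference was 0.01 with and −0.06 without it. GOT1 of low stress replicate 8 was at 11.58, with the others at 11.38 to 11.46. TKFC of low stress replicate 5 was at 5.69, with the others at 6.37 to 6.93, and the difference was −0.71 with and −0.83 without it. FBP1 had no such animal in either group.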

How the results depend on the processing

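The FBP1 difference between stress groups stayed between 0.39 and 0.70 under every alternative run, both of these within a set. With quantile normalization it was 0.50, with median centring 0.62 and with array weights 0.63. GPI stood at 0.03 with median centring, so that all 7 glycolytic enzymes were then higher in high stress animals. The probe sets called between stress groups, 0 over all animals and without each animal in turn, were 1 with the spike set as a block, 1 with the actin covariate and 1 with quantile normalization and that block. The unadjusted count of 460, with 183 higher in high stress, was 444 with 318 higher under median centring and 425 with 240 higher under quantile normalization. It was 363 without high stress replicate 7, 681 without high stress replicate 3 and 1852 with the actin covariate. Between the sets, 4 of the 8 genes passed, but 1 with quantile normalization (where GPI reversed to 0.13 and PGK1 to 0.0461, with limma adjusted p = 0.160 and 0.552) and 2 with no filter, when more probe sets are tested. It was 5 with the filter at the 60th percentile, the intensity trend with robust prior or array weights and 6 with median centring, FBP1 among them each time. Of the probe sets called between the sets 2353 of 5767 were lower in the high-spike set, 4201 of 6842 with median centring and 3083 of 6039 with quantile normalization. The interaction called 0 probe sets, and 2 with no filter. The median r of the 8 genes most like FBP1 was 0.90, and 0.84 with no means removed, 0.87 with quantile normalization, 0.77 without the 2 farthest arrays, 0.96 in the high-spike and 0.49 in the low-spike set. The cause of these shifts was not tested. The labels give no replicate numbers, so no animals were paired. When animals were blocked by the leading digit of their number, 0 probe sets were called between stress groups and 426 had an unadjusted p under 0.05. The FBP1 difference of 0.55 cannot change with this block, since each digit held 2 high and 2 low stress animals. Depth is not defined for these arrays, and detection calls were not used here.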

Other observations

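Of the 78 genes of the other lists 26 passed between the sets of arrays (33.3%), 15 higher and 11 lower in the high-spike set. This share lies below the 40.1% of all probe sets tested, so it shows nothing particular to genes of glucose metabolism. The values include PGD at −0.39 (limma adjusted p = 0.00359), PRPS1 at −0.29 (limma adjusted p = 0.0178) and PFKFB4 at 0.49 (limma adjusted p = 0.0199) on the log2 scale, high-spike minus low-spike.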
